A study of Homo sapiens with 14 samples.

Results

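TMPRSS2, FKBP5, SLC45A3, STEAP2, STEAP4, PMEPA1, HPGD, TMEFF2 and TRPM8 are genes of prostate cells that respond to androgen and are not kallikreins. They were taken by name, by their rows in the 4 count tables of the series, and so they are 9 of the 27819 genes that all 4 tables list. The series compared cultures of the human prostate cancer line CWR22Rv1 after 72 h with DMSO as the vehicle (3 libraries) or with an inhibitor of glycosylation. Fucotrim I was given at 30 μM (3 libraries), Fucotrim II at 60 μM (2 libraries), SGN-2FF at 100 μM (3 libraries) and P-SiaFNEtoc at 2 μM (3 libraries). Fucotrim I, Fucotrim II and SGN-2FF (2-fluorofucose) are inhibitors of fucosylation, and P-SiaFNEtoc is an inhibitor of sialylation. In this line the study could not set the potency of Fucotrim I, since lectin binding to fucose did not fall far enough. Both Fucotrims are also reported to lower GDP-mannose. The term fucosylation inhibitor is thus used for the class and is no measure of the block. All groups are the same cell line, the doses differ between inhibitors, and each inhibitor was given at 1 dose, so the values describe treatments as given.

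Steroid hormones act on genes through nuclear receptors, which bind DNA once they have bound their hormone. Such receptors recognise pairs of a short hexamer, often in enhancers far from the gene, and FOXA1 and HOXB13 are partner factors in prostate cells. TMPRSS2 is a membrane serine protease whose promoter is joined to ERG in many prostate tumors, and SLC45A3 is a prostate transporter that is another partner in such fusions. FKBP5 encodes FKBP51, a co-chaperone of HSP90 that acts on steroid receptors. STEAP2 and STEAP4 are metalloreductases, PMEPA1 is a membrane adaptor of the TGF-beta pathway, HPGD breaks down prostaglandins, TMEFF2 is a membrane protein with follistatin-like domains and TRPM8 is an ion channel that responds to cold.

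In DMSO, FKBP5 was the most abundant of the genes per kilobase of exon, with 51.9 ± 2.18 CPM per kb (SD, n = 3), above 94.5% of the 13634 tested genes with a known length. PMEPA1 (37.5 ± 1.05 CPM per kb), STEAP2 (27.7 ± 1.97 CPM per kb) and HPGD (27.0 ± 1.44 CPM per kb) were also among the more abundant transcripts. SLC45A3 (8.95 ± 0.93 CPM per kb), TMEFF2 (7.05 ± 0.036 CPM per kb) and TMPRSS2 (4.43 ± 0.093 CPM per kb) were in the middle of the range, and STEAP4 was low at 0.144 ± 0.011 CPM per kb. CPM are counts scaled to library size, with TMM factors from the 14 libraries, which had 12553094 to 19981453 counts on genes. TRPM8 was not detectable as an expressed gene at this depth: it had 1 count in each DMSO library, 2, 0 and 1 counts with Fucotrim I, 1 and 0 with Fucotrim II, 1, 0 and 0 with P-SiaFNEtoc and 0 in the 3 SGN-2FF libraries. Each of these is under a floor of 3 counts per library, so no fold change is given for TRPM8, and the other 8 genes passed the filter on low counts in every comparison.

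Cell identity and library quality were checked before the comparisons. The luminal markers KRT8, KRT18, EPCAM, HOXB13 and KLK3 had at least 439 counts in every library, whereas the basal markers KRT5, KRT14 and TP63 had at most 5, CHGA and INSM1 at most 2, and PTPRC, PECAM1 and VWF at most 3. Of the neuroendocrine and fibroblast markers, SYP (1245 to 2753 counts) and COL1A1 (209 to 485 counts) were present, LUM had 27 to 73 counts, DCN at most 13 and COL1A2 at most 3. The summed level of these 5 luminal markers moved with treatment, from 1189.8 to 1281 CPM in DMSO to 1848 to 1928 CPM with Fucotrim I, 1671 to 1987 CPM with Fucotrim II, 1539 to 1629 CPM with SGN-2FF and 1478 to 1562 CPM with P-SiaFNEtoc. KRT8 and KRT18, with means of 477 and 402 CPM in DMSO, weighed most in this sum. EPCAM was called higher (edgeR adjusted p under 0.05) with SGN-2FF alone. Markers outside the luminal set were called higher too, SYP with Fucotrim I and Fucotrim II (log2 fold changes of 0.15 and 0.44) and COL1A1 with Fucotrim II (0.59). Genes of the mitochondrial genome took 5.98% to 7.03% of the counts in DMSO, 8.67% to 14.2% with Fucotrim I, 12.2% to 17.0% with Fucotrim II, 8.27% to 8.69% with SGN-2FF and 6.11% to 6.83% with P-SiaFNEtoc. The part of these marker and mitochondrial changes in the results was not tested. The numbers of the 9 genes called in each comparison were the same without the mitochondrial genes. Leaving these genes out bears on the scaling and cannot show that part. Scaling by library totals alone moved the median log2 fold change of all genes to -0.15 with Fucotrim II, and the numbers called were the same under that scaling. The 2 Fucotrim II libraries differed most from each other, with a chi-square of 24.2 per degree of freedom over genes, against 1.59 for the closest pair of replicates.

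Because the genes are known for response to androgen, the starts of their transcripts were searched for the AGAACA hexamer, which steroid receptors recognise, on both strands (TGTTCT on the other). The RefSeq windows used here (GRCh38.p14) were 19 windows of 8 of the 9 genes, all but TMPRSS2, each from 250 bases before to 50 after a transcript start. The hexamer stood in 4 of them, in 1 of 2 windows of FKBP5, 2 of 4 of PMEPA1 and 1 of 6 of TRPM8, against 9.95% of the 16199 windows of tested genes and 14.8% of all 35116 windows. The paired element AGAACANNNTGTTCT, which holds the hexamer on both strands, was found in none of the 19 windows and in 1 of all 35116. A match describes letters in a window only. The stretches of FKBP5 and PMEPA1 that hold the hexamer, and as examples without it those of SLC45A3 and TMEFF2, which rose with the 3 fucosylation inhibitors, are shown 5′ to 3′ on the gene's strand, with the hexamer in capitals. They lie on the minus strand of GRCh38.p14, FKBP5 at chr6:35728554-35728833, PMEPA1 at chr20:57710560-57710827, SLC45A3 at chr1:205680480-205680759 and TMEFF2 at chr2:192194904-192195183.
FKBP5: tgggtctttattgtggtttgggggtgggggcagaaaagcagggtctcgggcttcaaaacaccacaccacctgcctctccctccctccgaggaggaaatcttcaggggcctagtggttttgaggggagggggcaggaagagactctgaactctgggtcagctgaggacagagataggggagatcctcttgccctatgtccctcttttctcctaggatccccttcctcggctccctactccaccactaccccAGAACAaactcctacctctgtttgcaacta
PMEPA1: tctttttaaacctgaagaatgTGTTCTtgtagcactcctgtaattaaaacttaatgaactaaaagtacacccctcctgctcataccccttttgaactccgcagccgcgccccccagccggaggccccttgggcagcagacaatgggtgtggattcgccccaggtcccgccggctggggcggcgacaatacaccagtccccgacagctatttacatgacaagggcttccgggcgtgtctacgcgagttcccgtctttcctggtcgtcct
SLC45A3: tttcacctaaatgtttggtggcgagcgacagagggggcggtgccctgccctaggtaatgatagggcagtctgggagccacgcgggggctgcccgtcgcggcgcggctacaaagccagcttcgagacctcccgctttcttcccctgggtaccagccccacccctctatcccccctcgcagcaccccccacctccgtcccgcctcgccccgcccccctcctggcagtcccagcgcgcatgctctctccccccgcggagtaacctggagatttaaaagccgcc
TMEFF2: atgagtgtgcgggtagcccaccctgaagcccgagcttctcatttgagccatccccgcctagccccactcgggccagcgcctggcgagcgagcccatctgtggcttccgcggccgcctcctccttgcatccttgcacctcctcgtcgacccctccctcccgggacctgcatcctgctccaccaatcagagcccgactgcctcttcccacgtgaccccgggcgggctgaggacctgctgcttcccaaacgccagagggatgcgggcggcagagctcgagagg

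In FKBP5 the hexamer begins at the transcript start itself (position 1), and in the PMEPA1 stretch it begins 229 bases before the start, on the opposite strand. The other PMEPA1 match, in another window, begins at position 23 from the transcript start, farther into transcribed sequence, and is not shown. A forkhead motif, TGTTTAC, was in 1 window of STEAP2, at 66 bases before the start, and in 2.51% of the windows of tested genes. TATAAA was in 1 window each of STEAP2 and TRPM8, and in 6.30% of the windows of tested genes.

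Most of the 8 tested genes rose with the fucosylation inhibitors and fewer with P-SiaFNEtoc. With Fucotrim I, 7 rose and none fell (adjusted p under 0.05 in edgeR's quasi-likelihood test over all genes), where 21.6% of 14188 tested genes were called higher and 22.1% lower. With Fucotrim II, 6 rose and 1 fell, where 25.6% of 14617 genes were called higher and 25.7% lower. With SGN-2FF, 6 rose and none fell, where 11.5% of 14312 genes were called higher and 9.08% lower. With P-SiaFNEtoc, 4 rose and 1 fell, where 9.02% of 14259 genes were called higher and 7.33% lower. The counts of 7, 6 and 6 of 8 genes called higher lie above the background share, and 4 of 8 with P-SiaFNEtoc is above it too. The genes were chosen with earlier results of these data known, so part of this excess could come from the choice itself. The counts describe these genes and are no test of androgen-responsive genes as a class. The median log2 fold change of the 8 genes was 0.60, 0.65, 0.53 and 0.09 with Fucotrim I, Fucotrim II, SGN-2FF and P-SiaFNEtoc, beside medians of 0.00 to 0.01 for all tested genes. These comparisons share the 3 DMSO libraries. In RNA from whole cultures, a change in the share of cells that express a gene and a change in RNA per cell cannot be told apart.

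Libraries of the treated and DMSO groups were also compared directly. All Fucotrim I libraries lay above all DMSO libraries for 7 of the 8 genes and below for none, where 25.6% of all genes lay wholly above and 27% wholly below. With Fucotrim II, 6 genes lay wholly above and 1 below, where 33.5% and 34.2% of all genes did. With SGN-2FF, 7 genes lay wholly above and none below, where 18.6% and 17.4% did. With P-SiaFNEtoc, 4 lay wholly above and 1 below, where 17.3% and 16.4% did.

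**Figure D1:**
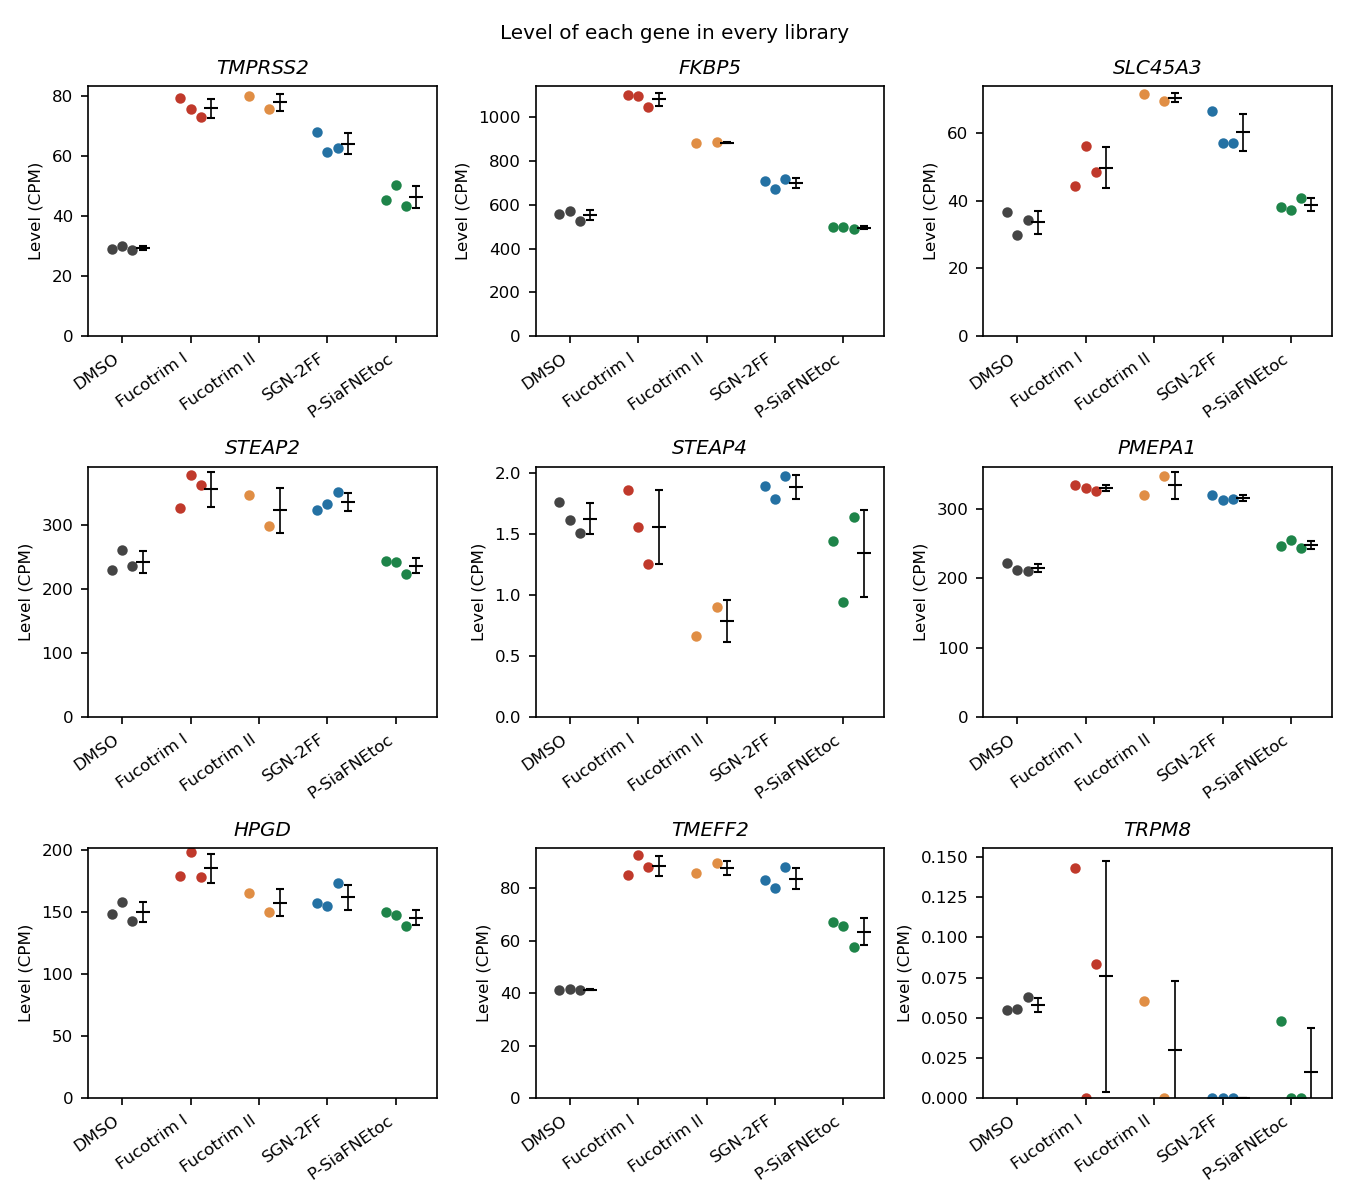
Level of the 9 genes in every library, in CPM after TMM scaling (vertical axis, from 0) for each group (horizontal axis). Points are libraries, and the dash with a bar is the group mean with its SD. TMPRSS2, TMEFF2, PMEPA1 and, narrowly with P-SiaFNEtoc, SLC45A3 lie above DMSO in every treated library. FKBP5 falls in steps from Fucotrim I to P-SiaFNEtoc, and TRPM8 rests on 0 to 2 counts per library.

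TMPRSS2 showed the largest rise of the 8 genes with every inhibitor. It stood at 28.9, 29.9 and 28.7 CPM in the 3 DMSO libraries and at 79.2, 75.6 and 72.9 CPM with Fucotrim I. With Fucotrim II it stood at 79.8 and 75.7 CPM, with SGN-2FF at 67.99, 61.4 and 62.6 CPM and with P-SiaFNEtoc at 45.4, 50.4 and 43.3 CPM. No treated library overlapped DMSO. The log2 fold changes were 1.38 ± 0.063 (SE) with Fucotrim I, 1.41 ± 0.069 with Fucotrim II, 1.14 ± 0.059 with SGN-2FF and 0.67 ± 0.063 with P-SiaFNEtoc, and the highest edgeR adjusted p of the 4 was 3.3e-06. Of all tested genes, only 72, 292, 67 and 240 had a larger log2 fold change in the respective comparison. The gene lies at chr21:41464300-41531116 on the minus strand (hg38), and 8.53% of its exon bases are also exon of MX1 on the other strand. MX1 had 39 to 80 counts per library against 459 to 1340 for TMPRSS2.

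TMEFF2 followed closely. It stood at 41.2, 41.5 and 41.1 CPM in DMSO, at 85.2, 92.8 and 88.0 CPM with Fucotrim I and at 85.8 and 89.7 CPM with Fucotrim II. With SGN-2FF it stood at 83.1, 80.1 and 88.0 CPM, and with P-SiaFNEtoc at 67.3, 65.6 and 57.6 CPM. The 3 fucosylation inhibitors overlapped each other, and all treated libraries lay above DMSO. The log2 fold changes were 1.11 ± 0.059 (SE), 1.08 ± 0.064, 1.03 ± 0.053 and 0.63 ± 0.057 with Fucotrim I, Fucotrim II, SGN-2FF and P-SiaFNEtoc, with a highest edgeR adjusted p of 5.9e-06. TMEFF2 lies at chr2:191949043-192194933 on the minus strand (hg38), with no exon shared with another annotated gene.

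FKBP5 rose with all 3 fucosylation inhibitors and fell with P-SiaFNEtoc. DMSO libraries had 557, 572 and 526 CPM. Fucotrim I gave 1103, 1097 and 1049 CPM, Fucotrim II 883 and 886 CPM, SGN-2FF 711, 671 and 717 CPM and P-SiaFNEtoc 500.4, 499 and 488 CPM. The 5 groups did not overlap in any pair, in the order Fucotrim I, Fucotrim II, SGN-2FF, DMSO and P-SiaFNEtoc. The log2 fold changes were 0.98 ± 0.048 (SE), 0.68 ± 0.063 and 0.35 ± 0.037 with the fucosylation inhibitors, with a highest edgeR adjusted p of 4.1e-05. With P-SiaFNEtoc the log2 fold change was -0.15 ± 0.040 (SE; edgeR adjusted p = 0.0083), a change of -9.94%, and it passed the threshold in all 16 alternatives (-0.18 to -0.12, highest adjusted p = 0.046). FKBP5 lies at chr6:35573585-35728583 on the minus strand (hg38).

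**Figure D2:**
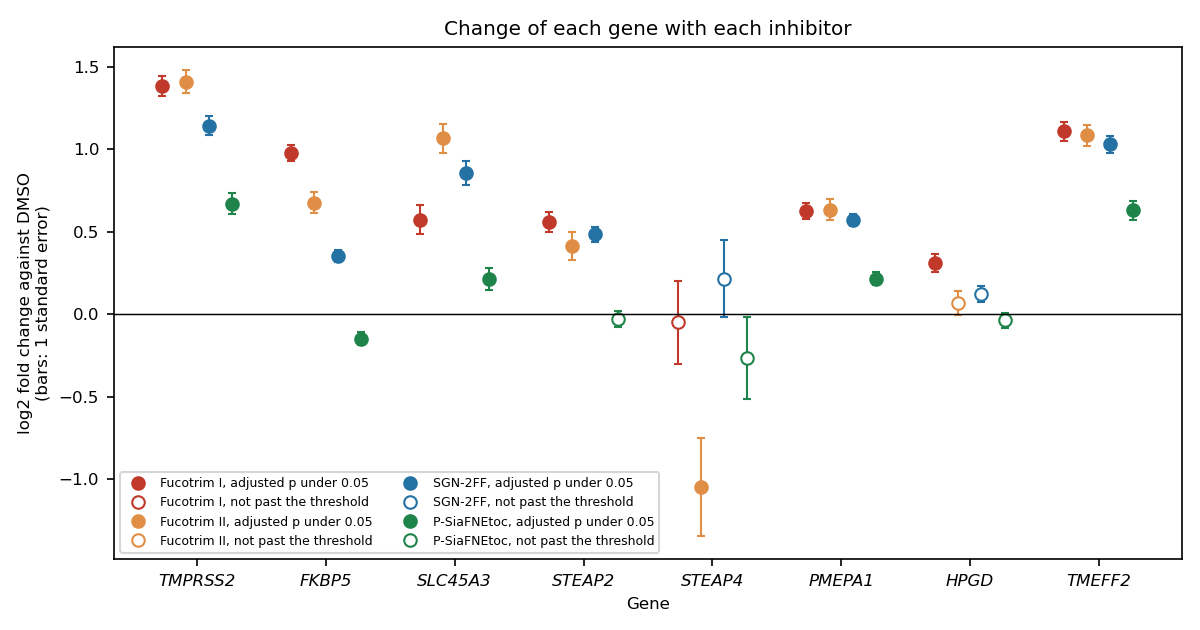
log2 fold change against DMSO (vertical axis) of the 8 tested genes (horizontal axis) for each inhibitor (color), with bars of 1 standard error. Filled points passed an edgeR adjusted p of 0.05 and open points did not. TMPRSS2 and TMEFF2 are highest throughout, and FKBP5 crosses from 0.98 with Fucotrim I to -0.15 with P-SiaFNEtoc.

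SLC45A3 rose with the 3 fucosylation inhibitors, in a different order, and less firmly with P-SiaFNEtoc. It stood at 36.6, 29.8 and 34.4 CPM in DMSO, at 44.4, 56.3 and 48.5 CPM with Fucotrim I and at 71.5 and 69.6 CPM with Fucotrim II. With SGN-2FF it stood at 66.6, 57.1 and 57.0 CPM, and with P-SiaFNEtoc at 38.1, 37.4 and 40.9 CPM, just above the highest DMSO library. The log2 fold changes were 0.57 ± 0.088 (SE), 1.06 ± 0.090 and 0.85 ± 0.073 with Fucotrim I, Fucotrim II and SGN-2FF, with a highest edgeR adjusted p of 4.3e-05. The rise of 0.21 ± 0.067 with P-SiaFNEtoc (edgeR adjusted p = 0.029) rested on few libraries: it passed the threshold in 9 of 16 alternatives, and without DMSO library 2 it was 0.13 with an adjusted p of 0.21. SLC45A3 lies at chr1:205657851-205680509 on the minus strand (hg38).

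The STEAP genes differed from each other. STEAP2 stood at 229, 261 and 235 CPM in DMSO, at 326, 378 and 362 CPM with Fucotrim I and at 347 and 298 CPM with Fucotrim II. With SGN-2FF it stood at 323, 332 and 351 CPM, and with P-SiaFNEtoc at 244, 242 and 222 CPM. All libraries of the fucosylation inhibitors lay above DMSO, and P-SiaFNEtoc overlapped it. The log2 fold changes were 0.56 ± 0.059 (SE), 0.41 ± 0.085 and 0.48 ± 0.045 with Fucotrim I, Fucotrim II and SGN-2FF, with a highest edgeR adjusted p of 0.0031. With P-SiaFNEtoc it was -0.03 (95% interval -0.13 to 0.065, edgeR adjusted p = 0.70). STEAP2 lies at chr7:90167590-90238137 on the plus strand (hg38).

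STEAP4 is a low gene, with 11 to 32 counts per library. It stood at 1.76, 1.61 and 1.503 CPM in DMSO and at 0.661 and 0.904 CPM with Fucotrim II, and the 2 groups did not overlap. The log2 fold change with Fucotrim II was -1.05 ± 0.30 (SE; edgeR adjusted p = 0.015), and it passed the threshold in 13 of 16 alternatives, but not without Fucotrim II library 1 (-0.85, adjusted p = 0.081). With Fucotrim I (1.86, 1.55 and 1.26 CPM), SGN-2FF (1.89, 1.78 and 1.97 CPM) and P-SiaFNEtoc (1.44, 0.945 and 1.64 CPM) the 95% intervals of the log2 fold change were -0.58 to 0.48, -0.26 to 0.69 and -0.78 to 0.24. The 3 SGN-2FF libraries lay just above the highest DMSO library without passing the test (edgeR adjusted p = 0.56). STEAP4 lies at chr7:88270892-88306894 on the minus strand (hg38), and 6.95% of its exon bases are shared with a long noncoding RNA on the other strand. Of its paralogs, STEAP1 rose with every inhibitor, with log2 fold changes of 0.73, 0.68, 0.74 and 0.20 for Fucotrim I, Fucotrim II, SGN-2FF and P-SiaFNEtoc, and STEAP3 passed the threshold with none (-0.07, 0.18, 0.20 and 0.14).

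PMEPA1 rose with every inhibitor, by nearly the same amount with the 3 fucosylation inhibitors. It stood at 222, 212 and 211 CPM in DMSO, at 335, 331 and 326 CPM with Fucotrim I and at 321 and 348 CPM with Fucotrim II. With SGN-2FF it stood at 321, 313 and 314 CPM, and with P-SiaFNEtoc at 248, 255 and 244 CPM. Every treated library lay above every DMSO library. The log2 fold changes were 0.63 ± 0.046 (SE), 0.63 ± 0.063, 0.57 ± 0.037 and 0.21 ± 0.040 in the same order, with a highest edgeR adjusted p of 0.0003. PMEPA1 lies at chr20:57648392-57711536 on the minus strand (hg38), and 5.98% of its exon bases are shared with NKILA, a noncoding RNA on the other strand.

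HPGD passed the test with Fucotrim I and with no other inhibitor in the fits against DMSO. It stood at 148, 158 and 142 CPM in DMSO, at 179, 198 and 178 CPM with Fucotrim I and at 165 and 149.5 CPM with Fucotrim II. With SGN-2FF it stood at 157, 155 and 173 CPM, and with P-SiaFNEtoc at 149.9, 147 and 138 CPM. Only the Fucotrim I libraries were clear of DMSO, with a log2 fold change of 0.31 ± 0.056 (SE; edgeR adjusted p = 0.00016). The 95% intervals of the log2 fold change were -0.097 to 0.23 with Fucotrim II, 0.024 to 0.22 with SGN-2FF (adjusted p = 0.069) and -0.13 to 0.055 with P-SiaFNEtoc. Without DMSO library 2, HPGD passed the threshold with SGN-2FF (0.16, edgeR adjusted p = 0.016). HPGD lies at chr4:174490175-174523154 on the minus strand (hg38), with 5.68% of its exon bases shared with a noncoding RNA on the other strand.

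**Figure D3:**
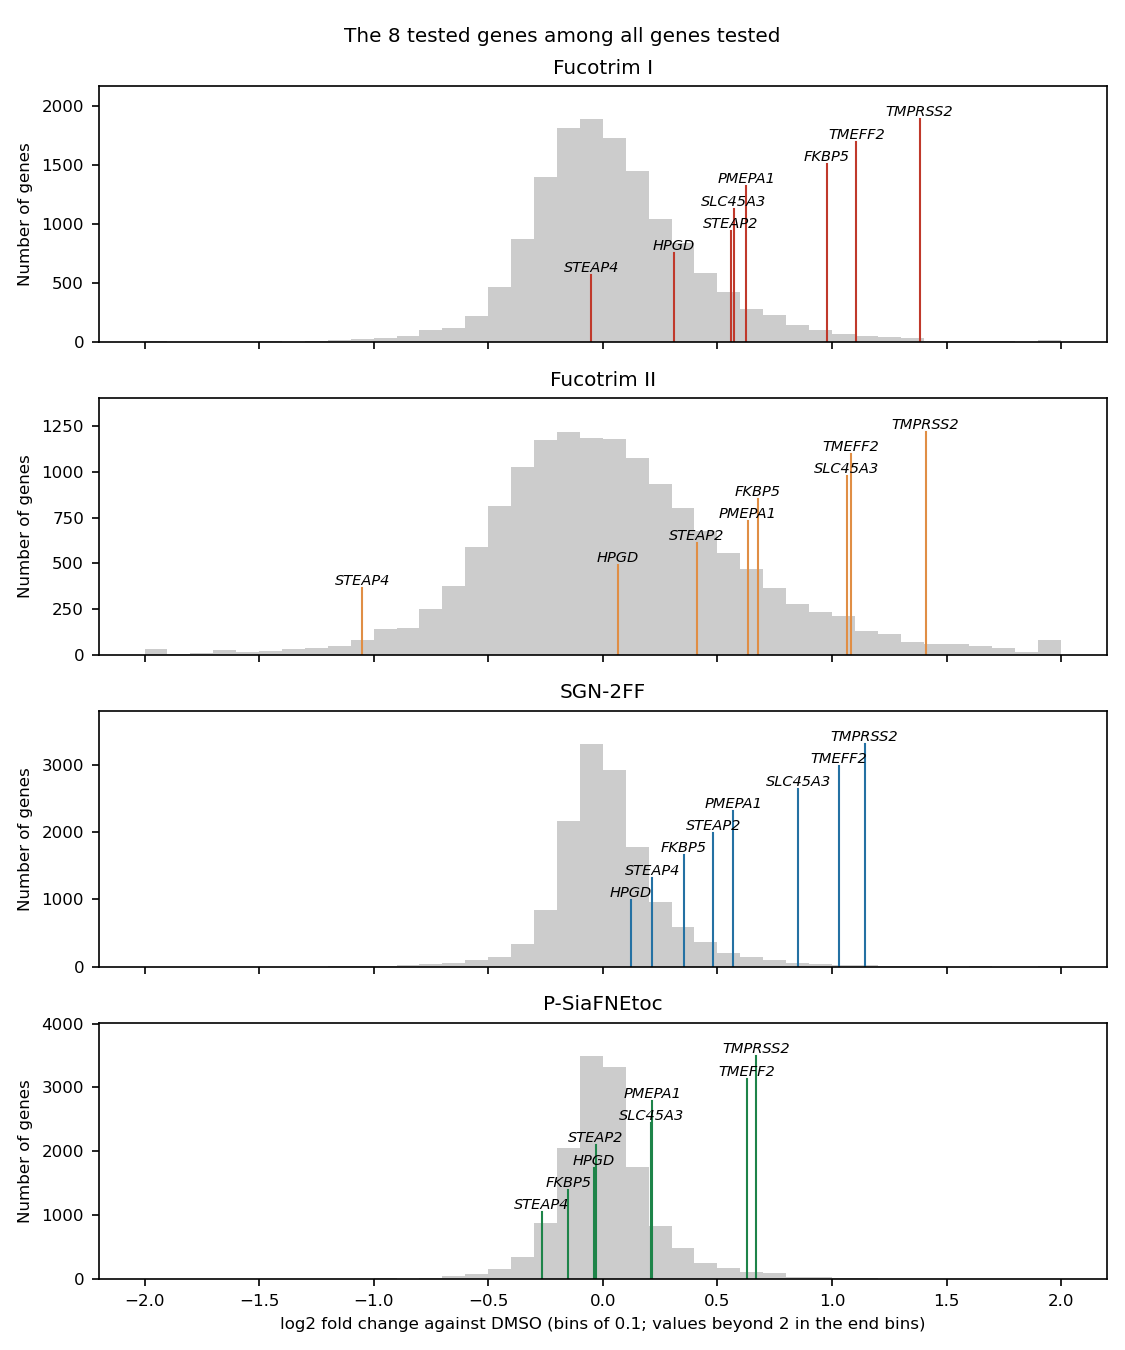
Number of tested genes (vertical axis) by log2 fold change against DMSO (horizontal axis, bins of 0.1) for each inhibitor, with the 8 genes marked by colored lines whose height has no meaning. TMPRSS2 and TMEFF2 stand at the upper edge of all 4 distributions, where at most 292 and 645 genes had larger values.

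The inhibitors were then compared with each other in a single fit of the 14 libraries, for 6 pairs, with p-values adjusted over all 14877 genes within each pair. Fucotrim I and Fucotrim II, given at different doses, differed for 4 of the 8 genes, where 24.2% of all genes differed. SLC45A3 was lower with Fucotrim I (log2 difference -0.50 ± 0.092, SE, edgeR adjusted p = 0.00045), whereas FKBP5 was higher (0.29 ± 0.052, edgeR adjusted p = 0.00027). Both passed the threshold in all 10 alternatives. HPGD (0.23 ± 0.068, edgeR adjusted p = 0.014) and STEAP4 (0.99 ± 0.31, edgeR adjusted p = 0.025) were also higher with Fucotrim I, in 7 and 6 of 10 alternatives. For TMPRSS2, PMEPA1 and TMEFF2 the 95% intervals of the difference were -0.17 to 0.11, -0.12 to 0.088 and -0.12 to 0.15.

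Fucotrim I and SGN-2FF also differed for 4 genes, where 22.9% of all genes differed. FKBP5 was higher with Fucotrim I by 0.63 ± 0.046 (SE, edgeR adjusted p = 2.5e-09) and TMPRSS2 by 0.25 ± 0.062 (edgeR adjusted p = 0.006), both in all 11 alternatives. SLC45A3 was lower (-0.27 ± 0.085, edgeR adjusted p = 0.025) and HPGD higher (0.20 ± 0.060, edgeR adjusted p = 0.023), in 8 of 11 alternatives each. Fucotrim II and SGN-2FF differed for 4 genes, where 46.3% of all genes differed, so this share is near the background. FKBP5 and TMPRSS2 were higher with Fucotrim II by 0.34 ± 0.051 and 0.28 ± 0.068 (SE), and STEAP4 was lower (-1.25 ± 0.30), each in all 10 alternatives, whereas SLC45A3 (0.23 ± 0.091) passed in 4 of 10. Across these 3 pairs, STEAP2, PMEPA1 and TMEFF2 did not pass in the 14-library fit, though STEAP2 passed in 1 of 10 alternatives between Fucotrim I and Fucotrim II and PMEPA1 in 1 of 10 between Fucotrim II and SGN-2FF. In that fit the 95% interval that reached farthest from 0 among them was that of STEAP2 between Fucotrim I and Fucotrim II (-0.013 to 0.29).

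Each fucosylation inhibitor was set against P-SiaFNEtoc in the same way. Fucotrim I gave higher levels of 7 of the 8 genes, all but STEAP4, where 31.3% of all genes differed in either direction. Fucotrim II gave higher levels of 6 genes and a lower level of STEAP4, where 50.2% differed, and the STEAP4 difference (-0.77 ± 0.31, SE, edgeR adjusted p = 0.043) passed in 2 of 10 alternatives. SGN-2FF gave higher levels of 6 genes, all but STEAP4 and HPGD, where 3.39% of all genes differed. Between SGN-2FF and P-SiaFNEtoc the log2 differences were 0.47 ± 0.063 (SE) for TMPRSS2, 0.50 ± 0.046 for FKBP5, 0.63 ± 0.085 for SLC45A3, 0.51 ± 0.066 for STEAP2, 0.35 ± 0.045 for PMEPA1 and 0.40 ± 0.060 for TMEFF2. Each of the 6 passed in all 11 alternatives, with an edgeR adjusted p of at most 0.00037 in the 14-library fit.

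A list of 28 other androgen-responsive genes was described beside the 9. It was written from general knowledge, and both the list and the 9 genes were chosen with earlier results of these data known. With Fucotrim I 9 of the 28 rose and 1 fell, with Fucotrim II 10 rose and 6 fell, with SGN-2FF 12 rose and 1 fell, and with P-SiaFNEtoc 9 rose and 4 fell. Of all tested genes, 21.6%, 25.6%, 11.5% and 9.02% were called higher and 22.1%, 25.7%, 9.08% and 7.33% lower in the same order, so the counts with Fucotrim II lie near those shares. The median log2 fold changes of the list were 0.06, 0.02, 0.18 and 0.03, nearer to 0 than the median of the 8 genes with each inhibitor. KLK2 and KLK3, which encodes PSA, rose with every inhibitor. KLK2 had log2 fold changes of 0.99, 0.81, 1.27 and 0.76 and KLK3 of 1.151, 0.59, 1.32 and 0.59 for Fucotrim I, Fucotrim II, SGN-2FF and P-SiaFNEtoc.

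MAF, a transcription factor, had the largest rise in the list with Fucotrim I (1.34 ± 0.24, SE) and rose by 1.18 ± 0.24 with Fucotrim II, from 1.52 CPM in DMSO, and the noncoding RNA PART1 rose by 1.18 ± 0.099 with Fucotrim II. NDRG1, a stress-responsive gene, rose by 0.71 ± 0.061 with P-SiaFNEtoc, and also with Fucotrim II (0.59) and SGN-2FF (0.66). ELL2, an elongation factor, fell with Fucotrim I (-0.31 ± 0.051) and Fucotrim II (-0.69 ± 0.060), and the transporter ABCC4 fell with Fucotrim II (-0.48 ± 0.14). The fatty acid ligase ACSL3 fell with SGN-2FF (-0.16 ± 0.051), Fucotrim II (-0.32) and P-SiaFNEtoc (-0.28), and the cytokine receptor LIFR (-0.44 ± 0.092) and HERC3 (-0.29 ± 0.081) fell with P-SiaFNEtoc. Genes of the same list thus passed the threshold in both directions with each inhibitor.

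**Figure D4:**
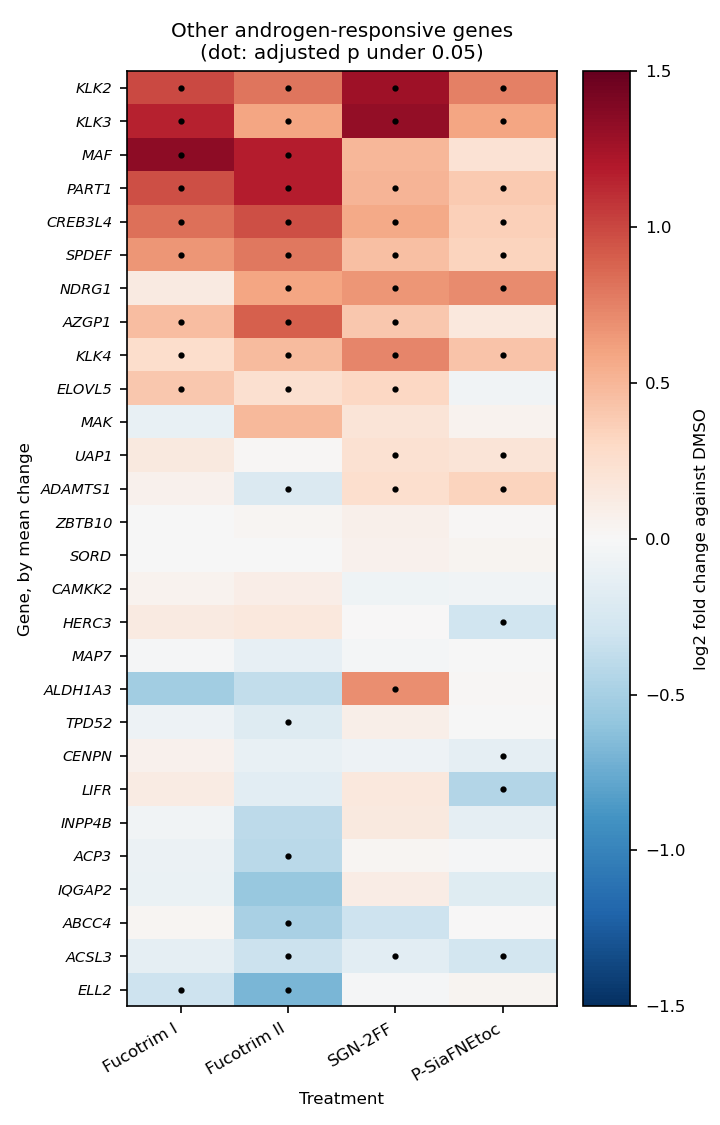
log2 fold change against DMSO (color, blue lower and red higher) of 28 other androgen-responsive genes (rows, ordered by their mean change) for each inhibitor (columns). Dots mark an edgeR adjusted p under 0.05, and they fall on 9, 10, 12 and 9 genes that rose and on 1, 6, 1 and 4 that fell.

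Transcription factors and coregulators of the hormone response were listed as well. Among the 10 listed, 3 rose and 6 fell with Fucotrim I, 2 rose and 5 fell with Fucotrim II, 4 rose and 2 fell with SGN-2FF and 5 rose and 1 fell with P-SiaFNEtoc. With Fucotrim I and Fucotrim II, 21.6% and 25.6% of all tested genes rose and 22.1% and 25.7% fell. The numbers that rose are thus near the background, and those that fell are above it. With SGN-2FF and P-SiaFNEtoc, 11.5% and 9.02% of all genes rose and 9.08% and 7.33% fell. The pioneer factor FOXA1 rose with P-SiaFNEtoc alone (0.14 ± 0.038, SE, edgeR adjusted p = 0.01), with -0.07, -0.12 and -0.04 for the other inhibitors. NR3C1, the glucocorticoid receptor, which also acts on FKBP5, fell with every inhibitor, by -0.22, -0.36, -0.40 and -0.26 on the log2 scale (highest edgeR adjusted p = 0.04). The homeobox factor HOXB13, chosen after its values were seen, rose with every inhibitor (0.73, 0.66, 0.44 and 0.32).

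Of 15 paralogs of the 9 genes, 10 were tested. With Fucotrim I 5 rose and none fell, with Fucotrim II 5 rose and 1 fell, with SGN-2FF 4 rose and none fell, and with P-SiaFNEtoc 4 rose and none fell. The shares of all tested genes called higher were 21.6%, 25.6%, 11.5% and 9.02%, and those called lower were 22.1%, 25.7%, 9.08% and 7.33%. FKBP4, which encodes the related co-chaperone FKBP52, was the paralog that fell with Fucotrim II (-0.29, edgeR adjusted p = 0.011), and it had log2 fold changes of -0.03, 0.00 and -0.02 with Fucotrim I, SGN-2FF and P-SiaFNEtoc. TMEFF1 did not pass the filter on low counts.

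The gene outside the 9 that was most like each of the 8 over the 14 libraries was found by the Pearson r of log2 CPM. The 11094 candidates held none of the 9 genes, so likeness among the 9 was not compared. This is a description without a test, since the libraries share treatments. These were the sodium channel subunit SCNN1A for TMPRSS2 (r = 0.978), NT5DC3 for FKBP5 (0.973), KCNMA1, a potassium channel, for PMEPA1 (0.970), EHF, an epithelial ETS factor, for TMEFF2 (0.969) and the metallothionein MT1E for SLC45A3 (0.955). For STEAP2 it was AP1G2-AS1 (0.952), for HPGD YTHDC2 (0.916) and for STEAP4 MFAP1 (0.905). MT1E belongs to a family of near-identical genes and AP1G2-AS1 is an antisense gene, so reads of either could be split with or taken from other genes.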

How the data were processed

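RNA of CWR22Rv1 cells was sequenced in 14 libraries. The authors prepared stranded mRNA libraries, sequenced single reads, used Cutadapt for trimming, HISAT2 for alignment (hg38) and featureCounts for quantification. The submitters' processing notes name FastQC, featureCounts and limma. The authors deposited whole-number counts per gene without normalization, in 1 table for each inhibitor, with identical DMSO counts in the 4 tables. The annotation release and the strand setting are not given in the sources used here, so reads from overlapping genes on opposite strands could be counted with either gene. Groups came from the labels and doses from the study's methods.

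The 9 genes and all gene lists were chosen with earlier results of these data known. The SGN-2FF table was read by NCBI gene number. Each inhibitor was fitted with DMSO in edgeR 4.0.16 (filterByExpr, minimum count 10, minimum total 15; TMM; robust quasi-likelihood test; Benjamini-Hochberg over all genes; threshold 0.05). Inhibitors were compared with each other in a fit of all 14 libraries. The SE was the log2 fold change divided by the square root of its F statistic, and 95% intervals used the test's degrees of freedom. Levels are CPM after TMM scaling over the 14 libraries. The test was checked on simulated counts first. Some genes of the lists are not reported here and were left out of the list counts and sums. The alternatives included DESeq2 1.42.0, limma-voom (limma 3.58.1; the study's tool), other filters and scalings, and leaving out each library. Exons and positions came from GENCODE 44. Genes outside the 9 were named by a rule. It took the gene most like each of the 8 tested (mean of at least 5 CPM). From the androgen list it took, for each inhibitor, the 2 genes with the largest called rise and up to 2 with the largest called fall. It also took FOXA1, NR3C1, STEAP1, STEAP3, TMEFF1, FKBP4, KLK2 and KLK3. The exceptions were HOXB13, NCOA1, NCOA2, GATA2, KLF9, TSC22D3, ERRFI1, CRISPLD2, PER1, SMAD7 and CCN2, which were chosen after their values were seen. Same-numbered libraries did not deviate together in every group, so no pairing was used. No 2 libraries of the same group were alike enough to be a repeat deposit of 1 library, and libraries of different groups were not compared in this way. The labels name biological replicates but not whether these were separate cultures, so p-values measure the spread between these libraries.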

Additional observations from a re-analysis of the deposited data

How the results depend on the processing

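Over the alternatives, 493 log2 fold changes of single genes kept their direction and side of the threshold, 10 lost the threshold, 1 gained it (HPGD with SGN-2FF without DMSO library 2) and 8 turned sign. The rise of SLC45A3 with P-SiaFNEtoc did not pass with the DESeq2 test (adjusted p = 0.081), limma-voom with quality weights (0.051), the 14-library fit (0.17) or without DMSO library 2 or 3 or P-SiaFNEtoc library 1 or 3, each left out alone (0.052 to 0.21). The fall of STEAP4 with Fucotrim II did not pass with the DESeq2 test (0.072), limma-voom with quality weights (0.068) or without Fucotrim II library 1, so the number of genes called lower was 0 there, 0 at an adjusted p under 0.01, and 0 to 1 when a library was left out. Only log2 fold changes that passed no test turned sign. STEAP4 with Fucotrim I was 0.010 without DMSO library 1 and 0.074 without Fucotrim I library 3 (-0.19 to 0.074 over libraries left out). HPGD with Fucotrim II was -0.093 under library totals alone and -0.0062 without Fucotrim II library 1 (-0.0062 to 0.13), and with P-SiaFNEtoc 0.0051 without DMSO library 2 (-0.073 to 0.0051). STEAP2 with P-SiaFNEtoc was 0.0025 with limma-voom and quality weights, 0.030 without DMSO library 2 and 0.0099 without P-SiaFNEtoc library 3 (-0.070 to 0.030). The cause of these changes was not tested.

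The number of all genes called with SGN-2FF was 2946, and 1949 with the DESeq2 test, 1609 at an adjusted p under 0.01, 1695 in the 14-library fit and 1642 to 3109 when a library was left out. With P-SiaFNEtoc it was 2331, and 1463, 1171, 998 and 1516 to 2115 in the same settings. Between Fucotrim I and Fucotrim II, 2 rather than 4 genes differed with only the libraries of those treatments, and 2 to 4 when a library was left out (2 without Fucotrim I library 2). Between Fucotrim I and SGN-2FF it was 2 to 4 (2 without SGN-2FF library 1). With a replicate block taken from the titles, the numbers called higher and lower against DMSO were the same (7 and 0, 6 and 1, 6 and 0, 4 and 1), also with the numbers of the library names for Fucotrim II, which are 2 and 3 where the titles have 1 and 2. The block gave 3 rather than 4 genes between Fucotrim II and SGN-2FF, 6 rather than 7 between Fucotrim II and P-SiaFNEtoc, and the same number in the other pairs. The correlation of same-numbered deviations ranged from -0.43 to 0.31 by the titles, and was 0.43 and 0.17 for Fucotrim II by the library names. Leaving out mitochondrial genes and scaling by library totals were chosen after seeing the data. Depth limits STEAP4 (11 to 32 counts) and TRPM8 (0 to 2 counts).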

Other observations

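Lists for the other pathways that act on FKBP5 and PMEPA1 were described by their counts. Of 10 glucocorticoid-responsive genes, 5 rose and 2 fell in Fucotrim I cells, 5 rose and 1 fell in Fucotrim II cells, 3 rose and 1 fell in SGN-2FF cells, and 1 rose and none fell in P-SiaFNEtoc cells. Of all tested genes, 21.6%, 25.6%, 11.5% and 9.02% rose and 22.1%, 25.7%, 9.08% and 7.33% fell in that order, so the numbers that fell, and the 1 that rose in P-SiaFNEtoc cells, are near or below the background. Their median log2 fold changes were 0.29, 0.24, 0.04 and 0.07. KLF9, a transcription factor, was among those that rose, by 1.14, 1.06 and 0.66 on the log2 scale for the 3 fucosylation inhibitors in that order, and was at 0.07 with P-SiaFNEtoc (edgeR adjusted p = 0.59). TSC22D3, which encodes GILZ, rose by 0.47, 0.42 and 0.29 with the same 3 inhibitors. ERRFI1 fell with Fucotrim I (-0.25) and Fucotrim II (-0.40) and rose with P-SiaFNEtoc (0.43). CRISPLD2 fell with Fucotrim I (-0.69), and PER1 rose with Fucotrim II (0.24) and fell with SGN-2FF (-0.26). KLF9, TSC22D3, ERRFI1, CRISPLD2 and PER1 were chosen after their values were seen.

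Of 12 genes that respond to TGF-beta, all 12 were tested with Fucotrim II and 10 with each other inhibitor. None rose and 7 fell with Fucotrim I, none rose and 5 fell with Fucotrim II, 1 rose and 2 fell with SGN-2FF, and 2 rose and none fell with P-SiaFNEtoc. Of all tested genes, 22.1%, 25.7%, 9.08% and 7.33% fell and 21.6%, 25.6%, 11.5% and 9.02% rose. Their median log2 fold changes were -0.40, -0.14, -0.13 and 0.07. SMAD7, a feedback inhibitor of the pathway, fell with the fucosylation inhibitors (-0.51, -0.52 and -0.35 for Fucotrim I, Fucotrim II, SGN-2FF) and rose with P-SiaFNEtoc (0.23). The part of this pathway in the change of PMEPA1 was not tested. CCN2, a secreted matrix protein, fell with Fucotrim I (-1.01) and Fucotrim II (-1.49) and rose with SGN-2FF (0.53) and P-SiaFNEtoc (0.57). SMAD7 and CCN2 were chosen after their values were seen, and the differences between inhibitors for these genes were not tested.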
